A study of Mus musculus with 2 samples.

Results

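Variable (V) genes of the antibody heavy chain and kappa light chain were described in cells from mouse Lewis lung carcinoma (LLC) tumours, in 1 library from Dusp2-/- mice (KO) and 1 library from wild-type mice (WT). The members are the 343 rows whose symbol starts with Ighv or Igkv, 183 heavy chain and 160 kappa genes, of 33696 rows in all. They were chosen by symbol alone, and all 343 gene IDs matched the GENCODE M21 annotation. In that annotation 113 Ighv and 100 Igkv rows are V genes, and 70 and 60 rows are V pseudogenes. The KO mice are labelled Dusp2-/-, and Dusp2 encodes a nuclear phosphatase that acts on MAP kinases. Both libraries are labelled as tumour-infiltrating lymphocytes and were made with the same droplet kit for 3' ends. The labels give the molecule as polyA RNA for KO and as total RNA for WT. The sources used here do not state which part of Dusp2 was deleted, how old the mice were, how cells were sorted or how many mice gave each library. With 1 library per genotype no difference between KO and WT has a replicate check, and no test was made. All intervals are at the 95% level and cover counting error only.

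A B cell builds its heavy chain from 1 V, 1 D and 1 J segment and its light chain from 1 V and 1 J segment. The V segment then lies beside the constant region and is transcribed with it, so that a B cell or its plasma cell descendants carry RNA of a single heavy and a single light V gene. Class switching replaces the constant region of the heavy chain (IgM and IgD by IgG, IgA or IgE) and keeps the V segment. Plasma cells secrete antibody and hold very large amounts of this RNA. A library of 3' ends reads mostly the constant end of the transcript, and reaches the V segment in few molecules.

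The germline sequences of the V genes that led in KO plasma cells show how far apart these genes are, which decides whether a read can be given to 1 gene. Each is the last V exon (at most its last 300 bases), 5' to 3' on the gene's strand, from the GENCODE M21 transcripts on GRCm38, with capitals at bases that differ from the most similar other V gene of the locus. The 4 heavy chain genes lie on chromosome 12.
Ighv1-82: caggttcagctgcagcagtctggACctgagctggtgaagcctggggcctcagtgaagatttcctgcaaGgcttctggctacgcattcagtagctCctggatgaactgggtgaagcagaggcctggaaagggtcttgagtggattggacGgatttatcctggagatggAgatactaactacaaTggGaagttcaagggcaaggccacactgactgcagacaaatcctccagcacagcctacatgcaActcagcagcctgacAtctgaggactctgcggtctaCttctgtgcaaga
Ighv14-3: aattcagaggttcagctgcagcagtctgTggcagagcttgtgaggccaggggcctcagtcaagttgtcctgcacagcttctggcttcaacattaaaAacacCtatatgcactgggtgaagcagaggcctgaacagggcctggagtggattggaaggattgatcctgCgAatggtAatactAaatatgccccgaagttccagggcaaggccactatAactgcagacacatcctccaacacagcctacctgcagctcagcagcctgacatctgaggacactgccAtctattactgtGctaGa
Ighv1-64: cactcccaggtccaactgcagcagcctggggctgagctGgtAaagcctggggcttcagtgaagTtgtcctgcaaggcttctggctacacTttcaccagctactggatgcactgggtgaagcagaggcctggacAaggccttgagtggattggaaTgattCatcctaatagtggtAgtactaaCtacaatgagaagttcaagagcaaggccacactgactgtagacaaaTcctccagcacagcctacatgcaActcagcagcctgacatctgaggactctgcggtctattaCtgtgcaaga
Ighv3-6: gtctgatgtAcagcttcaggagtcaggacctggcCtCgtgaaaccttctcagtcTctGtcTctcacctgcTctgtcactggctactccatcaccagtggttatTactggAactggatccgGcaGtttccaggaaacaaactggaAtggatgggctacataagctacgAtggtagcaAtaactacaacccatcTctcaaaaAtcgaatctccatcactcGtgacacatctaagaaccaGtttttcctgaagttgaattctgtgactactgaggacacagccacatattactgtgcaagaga
Ighv1-82 (chr12:115952538-115952831, minus strand) was 94.3% identical to Ighv1-80, its closest relative, and Ighv14-3 (chr12:114059845-114060144, minus strand) was 96% identical to Ighv14-1. Ighv1-64 (chr12:115507545-115507844, minus strand) was 96% identical to Ighv1-72, and Ighv3-6 (chr12:114288152-114288451, minus strand) was 93.3% identical to Ighv3-1. Among themselves Ighv1-82, Ighv14-3 and Ighv1-64 were 80% to 87.3% identical, while Ighv3-6 shared 57.0% to 57.3% of its bases with them.

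The 4 leading kappa genes of KO plasma cells lie on chromosome 6.
Igkv17-121: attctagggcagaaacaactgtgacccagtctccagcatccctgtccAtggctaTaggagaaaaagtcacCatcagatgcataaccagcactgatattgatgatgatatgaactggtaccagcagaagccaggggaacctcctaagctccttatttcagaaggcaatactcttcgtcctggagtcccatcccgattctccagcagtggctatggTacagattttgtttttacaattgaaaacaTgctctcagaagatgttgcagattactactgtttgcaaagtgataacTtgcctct
Igkv10-96: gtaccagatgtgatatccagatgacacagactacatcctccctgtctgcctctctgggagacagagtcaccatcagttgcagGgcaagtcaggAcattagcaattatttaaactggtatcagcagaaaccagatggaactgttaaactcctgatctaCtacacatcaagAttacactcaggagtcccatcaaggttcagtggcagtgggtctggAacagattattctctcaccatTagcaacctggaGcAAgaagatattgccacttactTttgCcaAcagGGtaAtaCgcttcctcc
Igkv6-32: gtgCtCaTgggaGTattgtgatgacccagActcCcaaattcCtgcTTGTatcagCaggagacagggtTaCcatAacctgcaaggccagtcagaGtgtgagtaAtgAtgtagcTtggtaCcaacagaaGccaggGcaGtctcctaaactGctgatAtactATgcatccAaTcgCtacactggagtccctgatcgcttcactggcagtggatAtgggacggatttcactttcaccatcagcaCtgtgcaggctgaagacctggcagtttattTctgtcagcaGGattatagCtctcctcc
Igkv5-48: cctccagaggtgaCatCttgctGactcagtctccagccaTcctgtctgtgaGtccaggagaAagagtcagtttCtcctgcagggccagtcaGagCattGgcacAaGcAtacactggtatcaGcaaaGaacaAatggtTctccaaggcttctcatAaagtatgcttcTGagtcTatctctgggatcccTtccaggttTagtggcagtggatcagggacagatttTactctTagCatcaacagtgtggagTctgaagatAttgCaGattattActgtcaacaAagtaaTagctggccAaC
Igkv17-121 (chr6:68037021-68037318, plus strand) was 98.0% identical to Igkv17-127, with 6 bases different. Igkv10-96 (chr6:68631963-68632260, minus strand) was 94.6% identical to Igkv10-94. Igkv6-32 (chr6:70074024-70074321, minus strand) and Igkv5-48 (chr6:69726573-69726870, minus strand) stood further from any other gene, 86.2% identical to Igkv6-17 and 85.9% to Igkv5-45.

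The 2 leading kappa genes of KO B cells are shown because they form the clearest contrast with plasma cells.
Igkv1-117: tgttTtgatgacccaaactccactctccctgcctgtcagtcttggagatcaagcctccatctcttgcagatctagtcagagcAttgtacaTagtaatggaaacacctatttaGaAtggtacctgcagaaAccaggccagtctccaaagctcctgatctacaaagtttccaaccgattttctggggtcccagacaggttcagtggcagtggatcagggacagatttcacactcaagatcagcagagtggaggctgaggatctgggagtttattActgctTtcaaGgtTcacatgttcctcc
Igkv1-110: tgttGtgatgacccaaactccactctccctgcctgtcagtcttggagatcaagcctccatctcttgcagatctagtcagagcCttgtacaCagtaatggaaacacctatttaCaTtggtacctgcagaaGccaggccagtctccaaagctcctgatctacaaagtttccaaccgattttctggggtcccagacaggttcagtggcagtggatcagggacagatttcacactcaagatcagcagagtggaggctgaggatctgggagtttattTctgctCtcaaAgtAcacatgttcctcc
Igkv1-117 (chr6:68121528-68121827, plus strand) and Igkv1-110 (chr6:68270968-68271267, plus strand) are each other's closest relatives, with 10 bases different over 300 (96.7% identity). Between kappa families the sequences printed here were 57.7% to 67.1% identical. Of the 113 Ighv V genes 2 had an exact copy, Ighv1-62-2 and Ighv1-71, and 4 lay within 3 bases of another gene. Of the 100 Igkv V genes 2 lay within 3 bases of another, Igkv5-43 and Igkv5-45. Counts of these 6 genes are uncertain, because a read may fit its partner equally well. They were the main V gene of 15 of 291 KO plasma cells for Ighv and 1 of 256 for Igkv.

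The KO library holds 12744 barcodes with 101532711 UMIs, and the WT library 9890 barcodes with 113873249 UMIs. After filters 11359 KO cells (median 4852 UMIs) and 9637 WT cells (median 8533 UMIs) were kept. Of all barcodes 31 occur in both libraries, among them 8 KO B cells and 0 KO plasma cells. Dusp2 stood at 30.6 CPM (29.5 to 31.8) in KO and 133 CPM (131 to 135) in WT, and in T cells at 8.20 CPM in KO and 406 CPM in WT. Thus the library labelled KO was lower but not at 0, with 2832 Dusp2 UMIs in 982 of its cells (8.65%). The label of lymphocytes covers the libraries only in part, since 792 KO and 2621 WT cells carried at least 10 UMIs of the macrophage genes C1qa, C1qb and C1qc, and none of Cd79a, Cd79b or the Cd3 genes.

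Plasma cells were cells with at least 20% of their UMIs on heavy, kappa or lambda chain genes. The gate counts V UMIs, so their high level of antibody RNA is no finding. It held 304 KO cells and 0 WT cells. The KO plasma cells had a median of 54.2% antibody UMIs. All 8 plasma cell markers were detected, with a UMI in 30.3% (Tnfrsf17) to 100% of cells. Jchain, which joins IgM and IgA into polymers, stood at 27471 CPM, the plasma cell factor Mzb1 at 5839 CPM and Xbp1, which drives secretion, at 1046 CPM. B cells were other cells with at least 3 UMIs of the antigen receptor genes Cd79a and Cd79b, 3726 in KO and 25 in WT. In KO B cells Ms4a1, which encodes CD20, stood at 462 CPM and had a UMI in 72.1% of cells. All 8 plasma cell markers were also detected in KO B cells and KO macrophages, so that count does not set plasma cells apart. The summed level of the 8 was 34909 CPM in plasma cells, 1150 CPM in B cells and 258 CPM in macrophages. Irf4, 1 of the 8, stood at 134 CPM in plasma cells and 138 CPM in B cells. Markers of other cell types were low in the KO plasma cells, with a summed level of 70.9 CPM over the 6 T cell genes and 99.7 CPM over the 6 macrophage genes. They were 214 and 515 CPM in KO B cells. Antibody UMIs, a median of only 0.826% in KO B cells, lower the plasma cell levels of all other genes in such comparisons. The 25 WT B cells carried Ms4a1 at 147 CPM beside 3968 CPM of the macrophage list and 1112 CPM of the 3 tumour genes, so this gate held mixed RNA.

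V gene RNA was found almost entirely in the KO library. Ighv rows had 7406 UMIs in KO (80 CPM) and 6 in WT (0.0540 CPM), and Igkv rows had 7613 UMIs in KO (82.3 CPM) and 6 in WT (0.0540 CPM). In KO 100 of 183 Ighv and 96 of 160 Igkv genes had a UMI, against 6 and 4 in WT. A total of 30 Ighv and 37 Igkv genes reached 50 UMIs, and each was at least 2-fold higher in KO, while 6.29% of the 15919 genes of that level were at least 2-fold higher in KO and 7.90% at least 2-fold lower. All of them passed the level through the KO library, so this count follows from the choice, and nothing is read from it. In WT 26 of the 30 and 36 of the 37 were at 0 UMIs. WT held fewer cells of the antibody-bearing gates, 0 plasma and 25 B cells against 304 and 3726 in KO. Whether V RNA per antibody-bearing cell also differed between the libraries was not tested, as WT had too few such cells.

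Within KO, V UMIs followed the antibody-bearing gates. Of plasma cells, 97.7% had an Ighv UMI and 92.4% an Igkv UMI, with a median of 12 Ighv UMIs (6 to 23 between the quartiles) and 11 Igkv UMIs (4 to 28) per cell. The highest cell had 621 Ighv UMIs, with Ighv1-19 as its main gene, and the highest Igkv cell had 154. Of B cells, 18.2% had an Ighv UMI and 20.1% an Igkv UMI at a median depth of 4390 UMIs. Cells that should lack antibody RNA measured the background. Among 1590 KO T cells (median 4790 UMIs) 1.64% had an Ighv UMI and 0.943% an Igkv UMI, and among 792 KO macrophages (median 7304 UMIs) 2.27% and 2.15%. After thinning every cell to 2000 UMIs, without the shallower cells (9 plasma, 496 B, 181 T cells and 33 macrophages), the Ighv shares were 87.8% in plasma cells, 8.70% in B cells, 0.852% in T cells and 0.395% in macrophages. The thinned Igkv shares were 84.4%, 10.1%, 0.568% and 0.264% in the same gates. In WT 3 of 25 B cells had an Ighv UMI and 2 an Igkv UMI, and 0 of 1232 T cells had either, which by the limit of 3 counts allows a share of up to 0.244%.

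The main V gene of a cell is the gene with most UMIs of its chain, at least 2, and over 50% of the chain's V UMIs. A main Ighv gene was found in 291 of 304 KO plasma cells (95.7%) and a main Igkv gene in 256 (84.2%). In 259 plasma cells all Ighv UMIs fell on 1 gene, and in 167 all Igkv UMIs did. Another gene reached 20% of the chain's V UMIs in 5 and 17 cells. In KO B cells a main gene was found in only 112 of 3726 cells for Ighv (3.01%) and 150 for Igkv (4.03%). By the same rule 0 of 1590 T cells got a main Ighv gene (by the same limit up to 0.189%) and 1 a main Igkv gene, and 0 of 792 macrophages got either (up to 0.379%). No WT cell of any gate had a main V gene. The B cells with a main gene are no random part of the gate. Their median depth was 7932 UMIs (Ighv) and 8056 UMIs (Igkv), against 4327 and 4295 in B cells without one, and Jchain stood at 2499 and 1813 CPM against 230 and 236.

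**Figure D1:**
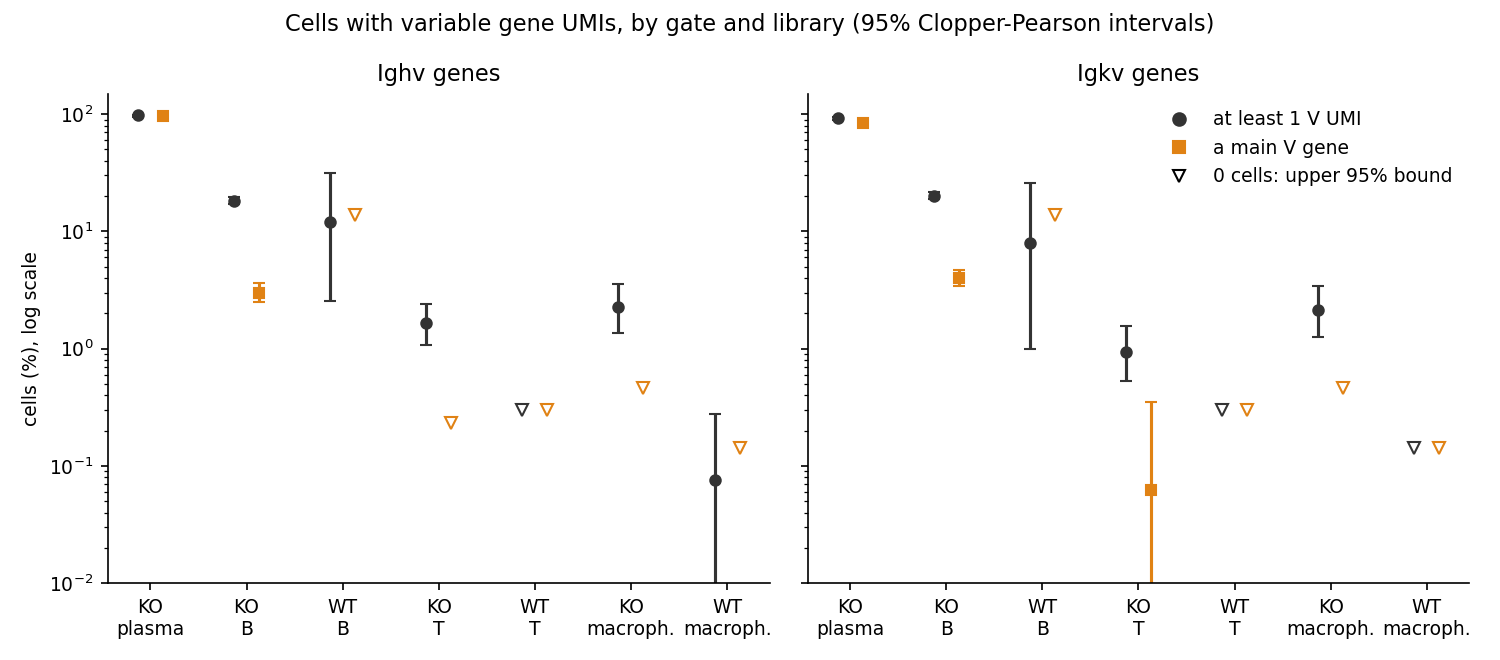
Share of cells (percent, log scale) with at least 1 V UMI (circles) and with a main V gene (squares), by gate and library, for Ighv (left) and Igkv (right). Bars are Clopper-Pearson intervals and open triangles the upper bound where 0 cells were found. KO plasma circles stand at 97.7% (Ighv) and 92.4% (Igkv) and squares at 95.7% and 84.2%. KO B circles stand at 18.2% and 20.1% and squares at 3.01% and 4.03%, and T cells and macrophages are under 3%.

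Heavy chain V use in KO plasma cells was spread over 46 genes, led by Ighv1-82 and Ighv14-3. Each was the main gene of 26 of 291 cells (8.93%, 5.92 to 12.8), followed by Ighv1-64 with 20 cells (6.87%, 4.25 to 10.4), Ighv3-6 and Ighv1-9 with 16 each (5.50%, 3.18 to 8.78), Ighv9-3 with 15, Ighv1-26 with 13 and Ighv1-80 with 11. The neighbours in this order do not differ beyond their intervals. In its cells Ighv1-82 had 3 to 62 UMIs, with a median of 14.5, and it was seen in 4 other plasma cells. Ighv14-3 had 3 to 80 UMIs (median 9.50) in its 26 cells and none in any other plasma cell. Ighv9-3 was read most deeply, with 19 to 93 UMIs and a median of 38. The 8 leading genes together held 49.1% of the cells.

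Kappa V use was spread over 49 genes. Igkv17-121 was the main gene of most barcodes, 18 of 256 (7.03%, 4.22 to 10.9), with 2 to 74 UMIs (median 9.50). Its rank rests on shallow barcodes that share V genes and class, since it had 5 of 130 units with such groups counted once, behind Igkv10-96 with 9, and 0.806% of the plasma cells of at least 10000 UMIs. Igkv10-96 and Igkv6-32 followed with 14 cells each (5.47%, 3.02 to 9.01), then Igkv5-48 with 13, Igkv6-15 with 12, Igkv4-72 with 11, and Igkv12-44 and Igkv17-127 with 10 each. Igkv10-96 cells had 4 to 72 UMIs of it (median 19.5), whereas Igkv6-32 cells had 2 to 37 (median 6). Some of these genes also gave UMIs elsewhere: Igkv12-44 had UMIs in 13 plasma cells with another or no main gene and Igkv10-96 in 9. The 8 leading kappa genes held 39.8% of the cells. Light chains of the lambda type were in use in 21 of the 304 plasma cells (6.91%, 4.33 to 10.4), and 2 of these had a main Igkv gene, against 254 of 283 kappa cells.

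**Figure D2:**
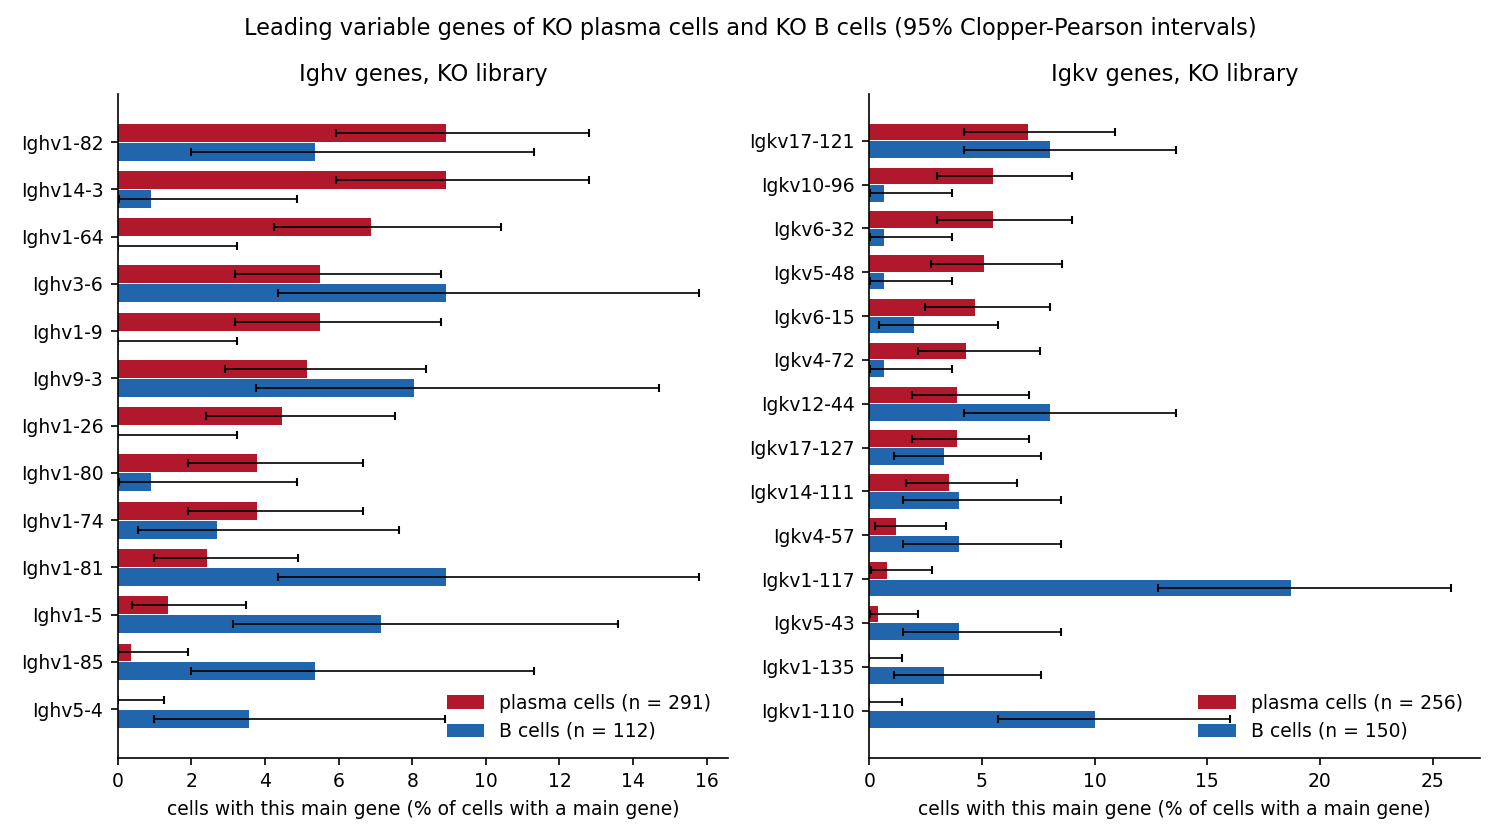
Share of KO plasma cells (red) and KO B cells (blue) with each main V gene, as percent of cells with a main gene of that chain, for the 8 leading genes of either gate; bars are Clopper-Pearson intervals. Igkv1-117 reaches 18.7% in B cells and 0.781% in plasma cells, and no plasma gene exceeds 8.93%.

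B cells of the same library led with other kappa genes. Igkv1-117 was the main gene of 2 of 256 plasma cells (0.781%, 0.0948 to 2.79) and 28 of 150 B cells (18.7%, 12.8 to 25.8), a log2 ratio of shares of -4.58 (-6.63 to -2.53). Its close relative Igkv1-110 was the main gene of 0 plasma cells, with 0 UMIs among all 304 of them, and of 15 B cells (10%, 5.71 to 16). Its share of B cells was 8.53 times a floor of 3 plasma cells, a ratio that leaves out counting error in the B cells. Igkv1-135 was the main gene of 0 plasma and 5 B cells. With barcodes of the same V genes and class counted once, its shares were 0% (0 to 2.80) and 3.47% (1.14 to 7.92), intervals that overlap. The whole Igkv1 family made up 1.95% of plasma cells (0.637 to 4.50) and 32.7% of B cells (25.2 to 40.8). The Igkv1-117 B cells were not 1 group by their heavy chain: 3 of the 28 had a main Ighv gene, each a different one. Of those 28, 26 had a heavy chain class, and 21 of the 26 were IgM/IgD. The depth of a B cell moved with these shares, since Igkv1-117 B cells had a median of 5391 UMIs, and the B cells of Igkv17-121 and Igkv12-44, with 12 cells each, had medians of 12728 and 7718 UMIs. Among B cells of at least 10000 UMIs, an alternative chosen after the data were seen, Igkv1-117 was the main gene of 9.68% (3.63 to 19.9), behind Igkv17-121 with 12.9%. The part of depth in the difference was not tested.

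In the other direction Igkv10-96 and Igkv6-32 each had 14 plasma cells and 1 B cell, a log2 ratio of 3.04 (0.12 to 5.95). Igkv5-48 had 13 plasma cells and 1 B cell, log2 2.93 (0.01 to 5.85). With barcodes of the same V genes and class counted once, Igkv10-96 had 9 of 130 plasma units and 1 of 144 B cell units, log2 3.32 (0.36 to 6.28). Igkv6-32 then had 3 and 1, log2 1.73 (-1.51 to 4.98), and Igkv5-48 4 and 1, log2 2.15 (-0.995 to 5.29), so the intervals of both include 0. By family Igkv6 made up 22.7% of plasma cells (17.7 to 28.3) and 8.67% of B cells (4.70 to 14.4). Igkv4 made up 17.2% (12.8 to 22.4) and 8% (4.20 to 13.6), intervals that overlap. The intervals of Igkv17-121 (7.03% of plasma cells and 8% of B cells), Igkv14-111 (3.52% and 4%) and Igkv17-127 (3.91% and 3.33%) overlap between the gates, with log2 ratios of -0.19 (-1.20 to 0.83), -0.19 (-1.65 to 1.28) and 0.23 (-1.29 to 1.75).

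On the heavy chain Ighv1-64 was the main gene of 20 plasma cells and 0 B cells, Ighv1-9 of 16 and 0, Ighv1-26 of 13 and 0 and Ighv1-72 of 11 and 0. These shares were 2.57, 2.05, 1.67 and 1.41 times a floor of 3 B cells, ratios that leave out counting error in the plasma cells. Ighv1-64, Ighv1-9, Ighv1-26, Ighv1-72 and Ighv1-81 were picked from all Ighv genes in the same way as the kappa genes, so their distance from equal shares follows from the choice. With groups counted once Ighv1-64, Ighv1-9, Ighv1-26 and Ighv1-72 had 8, 7, 6 and 4 of 165 plasma units, against 0 of 106 B cell units. Their shares were then 1.71, 1.5, 1.28 and 0.857 times the floor. Their intervals (2.12 to 9.33%, 1.72 to 8.55%, 1.35 to 7.75% and 0.664 to 6.09%) all overlap the 0 to 3.42% of B cell units. Each of these genes was still seen as single UMIs in B cells, 18 UMIs in 18 cells for Ighv1-64 and 26 in 26 for Ighv1-26. Ighv14-3 was the main gene of 26 plasma cells and 1 B cell, a log2 ratio of 3.32 (0.46 to 6.19). Ighv1-81 was lower in plasma cells, with 7 of 291 cells (2.41%, 0.972 to 4.89) against 10 of 112 B cells (8.93%, 4.36 to 15.8), log2 -1.89 (-3.25 to -0.54). Likewise Ighv1-5 had 4 plasma and 8 B cells, log2 -2.38 (-4.08 to -0.68), and Ighv1-85 had 1 and 6, log2 -3.96 (-7.00 to -0.92). With groups counted once Ighv14-3 stood at log2 3.17 (0.26 to 6.07), while the intervals of Ighv1-81 (-2.11 to 0.83), Ighv1-5 (-3.78 to 0.06) and Ighv1-85 (-6.04 to 0.12) included 0. Barcodes without a main Igkv gene could not be grouped, and 21 of the 26 Ighv14-3 plasma cells had one. The large Ighv1 family made up 61.9% of plasma cells (56.0 to 67.5) and 52.7% of B cells (43.0 to 62.2), intervals that overlap. Ighv2 stood at 0.344% of plasma cells (0.00870 to 1.90) and 8.04% of B cells (3.74 to 14.7).

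Main genes came from the whole length of both loci. The used Ighv genes had a median distance from the nearest J gene of 1359 kb over plasma cells and 1083 kb over B cells, against 1182 kb over the 113 V genes themselves. For Igkv the medians were 995 kb over plasma cells and 2435 kb over B cells, against 1314 kb over the 100 V genes. The B cell value follows Igkv1-117 at 2601 kb, Igkv1-110 at 2451 kb and Igkv17-121 at 2685 kb, which lie close together at the far part of the locus. All Ighv genes point the way of the J genes. Of the Igkv genes 38 point the way of the J genes and 62 the other way, and the 62 supplied the main gene of 166 plasma cells and 56 B cells.

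**Figure D3:**
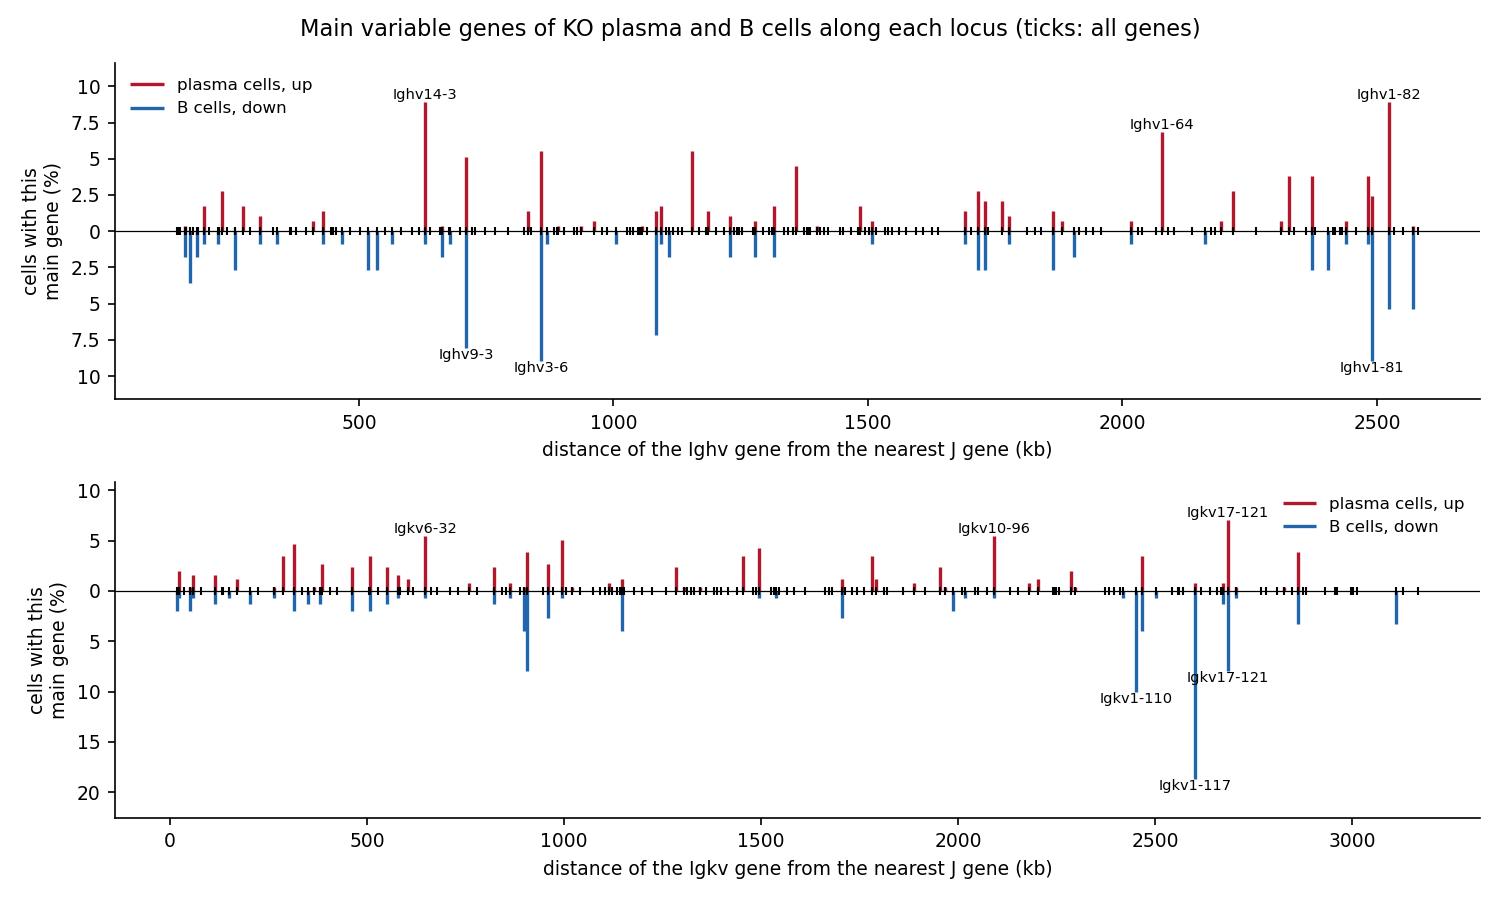
Share of KO plasma cells (upward, red) and KO B cells (downward, blue) with each main V gene, in percent, against the gene's distance in kb from the nearest J gene, for Ighv (top) and Igkv (bottom). Black ticks mark every member; the tallest downward lines in the lower panel are Igkv1-117 and Igkv1-110, at 2601 and 2451 kb.

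Evenness was measured as the effective number, the count of equally used genes that would give the same chance that 2 random cells share their main gene. It was 25.3 (21.6 to 30.5) for Ighv and 33.2 (28.6 to 39.5) for Igkv in plasma cells, and 28 (20.8 to 42.8) for Ighv and 15.6 (11.8 to 23.0) for Igkv in B cells. The Ighv intervals of the gates overlap, and the Igkv intervals do not at the 2 UMIs that a main gene needs. At an equal number of 100 cells, plasma cells would show 34.7 Ighv and 37.4 Igkv genes, and B cells 39.9 and 33.0. The low Igkv value of B cells lay in the IgM/IgD cells, with an effective number of 6.98 (4.67 to 13.8) over 62 cells, of which 21 had Igkv1-117 (33.9%) and 10 Igkv1-110 (16.1%). Switched B cells had 24.8 (17.5 to 42.6) over 74 cells. The B cell numbers depend on these 2 UMIs: at 1 UMI the Igkv value was 30.2 (26.6 to 34.9) over 712 cells, and at 5 UMIs 34.2 over 19 cells. In plasma cells it was 33.6 (29.2 to 39.4) at 1 UMI and 30.6 (25.7 to 37.7) at 5 UMIs. The Igkv intervals of the gates thus overlap at 1 UMI. At 5 UMIs the B cell value was the higher, with a lower bound of 11.8 and no upper one.

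Heavy chain class was called from the constant genes, at least 3 UMIs and over 50% of them. All 304 KO plasma cells had a class, and 58.2% (52.5 to 63.8) were IgG2b, 17.8% IgG1, 15.8% IgG2c, 3.62% IgM/IgD, 2.30% IgG3, 2.30% IgA and 0% IgE. Of B cells 77.3% had a class, which in 75.7% of these was IgM/IgD, in 16.2% IgG2b and in 6.18% IgG1. The background is high here: 13.6% of T cells and 15.3% of macrophages got a class by the same rule. IgG2b was called in 12.5% of all B cells, against 6.29% of T cells and 10.4% of macrophages, so the IgG2b calls of B cells stand little above the background. IgM/IgD was called in 58.5% of B cells, against 5.41% of T cells and 1.64% of macrophages. In WT 4.63% of T cells and 3.20% of macrophages got a class, all of them IgM/IgD, and 0 of either were called IgG2b.

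The plasma cell classes had different leading V genes by barcode. The effective number of Ighv genes was 19.3 (15.4 to 25.9) in IgG2b, 11.7 (8.42 to 19.3) in IgG1, 17.4 (11.3 to 37.5) in IgG2c and 1.90 (1.12 to 6.12) in the 11 IgM/IgD cells. For Igkv it was 25.9 (20 to 36.9) in IgG2b, 10.5 (7.74 to 16.3) in IgG1, 18.1 (11.6 to 40.6) in IgG2c and 1.90 in IgM/IgD. The Ighv intervals of the IgG classes overlap, and the Igkv intervals of IgG2b and IgG1 do not. Ighv1-82 led IgG2b with 22 of 165 cells (13.3%, 8.55 to 19.5), and 84.6% of all Ighv1-82 cells were IgG2b. Ighv14-3 led IgG2c with 8 of 48 cells (16.7%, 7.48 to 30.2), and its other 18 cells were IgG2b. Ighv9-3 and Ighv1-64 led IgG1 with 9 of 54 each (16.7%, 7.92 to 29.3). On the kappa side Igkv17-121 led IgG2b with 17 of 143 cells, Igkv6-25 led IgG1 with 8 of 49 and Igkv6-15 led IgG2c with 6 of 43. In IgM/IgD 8 of 11 cells had Ighv1-9 together with Igkv17-127. All 6 IgA cells with a main Ighv gene had Ighv1-54, with Igkv6-20. Several of these leads rest on barcodes that share both V genes and class: the 6 Igkv6-15 IgG2c cells are 1 such group, and 15 of the 17 Igkv17-121 IgG2b cells lie in 2. With groups counted once Ighv1-82 led IgG2b with 16 of 98 units (16.3%), ahead of Ighv14-3 with 11, and Igkv14-111 led its kappa genes with 5 of 76. Barcodes without a main Igkv gene could not be grouped and stayed 1 unit each, and only 13 of the 26 Ighv1-82 cells of all classes had one. In IgG1 Ighv1-64, Ighv1-82 and Ighv9-3 had 3 of 27 units each, and Igkv10-96 and Igkv6-25 had 4 of 22 each. In IgG2c Ighv14-3 and Ighv8-12 had 3 of 29 each and Igkv12-46 had 3 of 24.

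**Figure D4:**
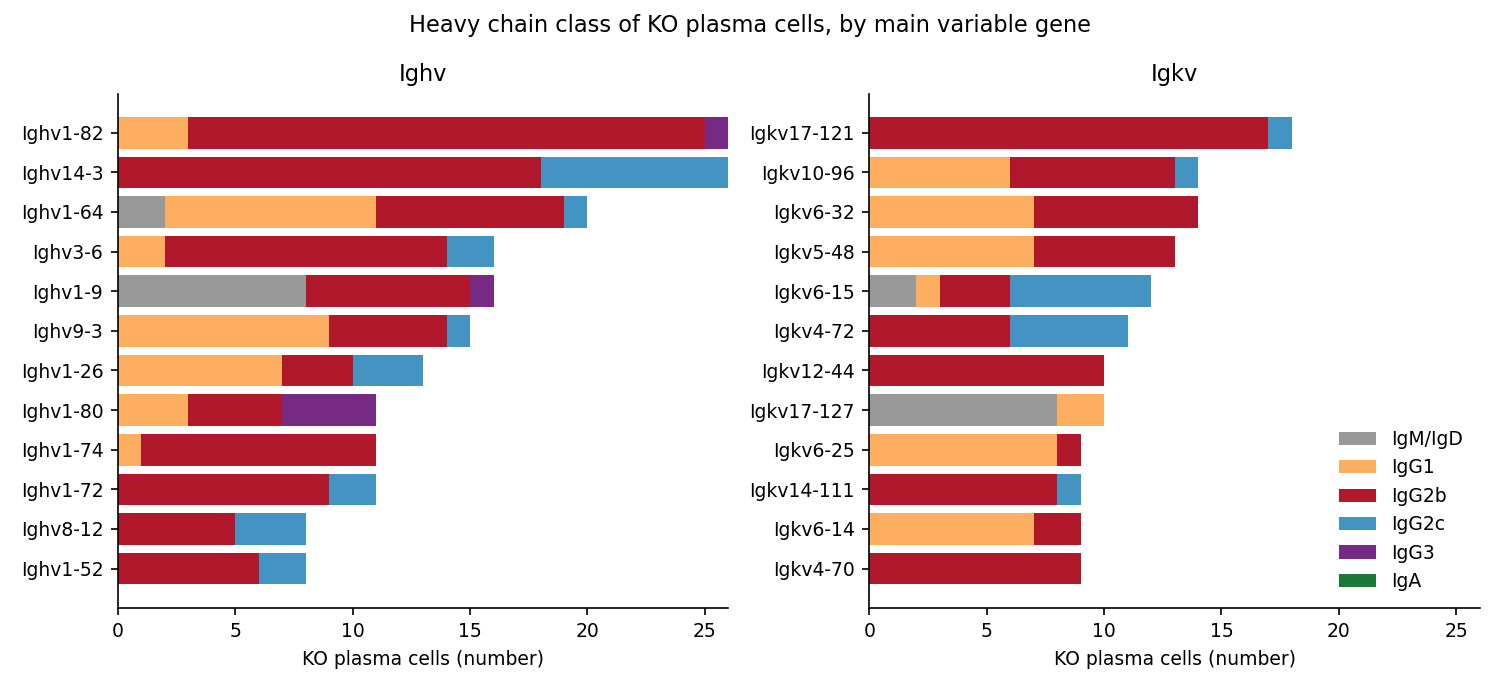
Number of KO plasma cells by heavy chain class (colours) for the 12 leading main Ighv genes (left) and Igkv genes (right). Ighv1-82 and Igkv17-121 are mostly IgG2b, Ighv9-3 and Igkv6-25 mostly IgG1, and 8 of the 10 Igkv17-127 cells are IgM/IgD.

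The same heavy and light genes recurred together across barcodes. Both chains were found in 247 plasma cells, in 116 different pairs. Of all pairs of cells 2.97% had the same Igkv gene, and of pairs of cells with the same Ighv gene 35.2% did. Cells that also shared the class made 49 groups of 2 to 9 barcodes, with 175 of the 247 (70.9%, 64.8 to 76.4), and 22 groups had at least 3. Ighv1-64 with Igkv6-32 was the pair of 13 cells, 7 IgG1 and 6 IgG2b. Ighv3-6 with Igkv4-70 was found in 9 cells, all IgG2b, and Ighv9-3 with Igkv6-14 in 9, of which 7 were IgG1 and 2 IgG2b. Ighv1-72 with Igkv17-121 and Ighv5-9 with Igkv12-44 were found in 8 IgG2b cells each, Ighv1-9 with Igkv17-127 in 8 IgM/IgD cells, Ighv1-26 with Igkv5-48 in 7 IgG1 cells, and Ighv1-74 with Igkv17-121 in 7 IgG2b cells. The 8 Ighv5-9 plasma cells all had this 1 light chain, as did the 6 of Ighv1-54 and the 5 of Ighv1-39, which were IgG2c with Igkv4-72. Cells with the same Ighv but another Igkv gene had the same class in 38.6% of pairs of cells, close to the 36.9% of all pairs of cells. Among the 29 B cells with both chains, 10 shared pair and class (34.5%, 17.9 to 54.3), 4 of them Ighv1-81 with Igkv4-57 in IgG1 cells. These 10 cells had 7.41% to 16.1% antibody UMIs, against a median of 0.826% over the B cell gate. With the plasma gate at 10% the share of B cells in groups was 13.3% (1.66 to 40.5). The pairs of plasma cells and B cells met in 2 cases, Ighv5-9-1 with Igkv12-41 and Ighv8-8 with Igkv8-27.

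The depth of a barcode moved with the size of its group. The 72 plasma barcodes that shared all 3 features with no other had a median of 24194 UMIs. In the 27 groups of 2 the typical barcode had 12492 UMIs and the typical group sum was 24983, in the 10 groups of 3 to 5 barcodes these were 10246 and 38244, and in the 12 groups of 6 to 9 they were 4439 and 35926. Barcodes were thus shallower in the larger groups, and the group sums differed less from 1 unshared barcode than the group sizes do. The 9 barcodes of Ighv3-6 with Igkv4-70 had 1521 to 5751 UMIs, 26042 together, and the 8 of Ighv1-9 with Igkv17-127 had 3818 to 10628, together 46153. The share of antibody UMIs was 57.5% to 63.9% in the first of these groups and 45.1% to 54.8% in the other. Over the 175 barcodes of the 49 groups its pooled SD within a group was 4.46 percentage points. The SD was 14.7 over the 82 IgG2b plasma cells outside the groups. These 82 include cells without a main Ighv or Igkv gene, whose sharing could not be assessed. For genes outside the antibody loci, the spread of counts between the barcodes of a group had a median of 1.21 times what counting error alone gives (0.881 to 3.37 over the groups, genes with a mean of at least 3 UMIs). It was 2.77 over the same 82 IgG2b cells outside the groups and 2.19 over the 39 of these under 8000 UMIs. Barcode sequences of a group differed at a median of 12 of 16 bases, as did those of other plasma cells. Separate sister cells and the RNA of 1 cell under several barcodes cannot be told apart from these counts, so the groups are not called clones, and their sizes are numbers of barcodes.

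**Figure D5:**
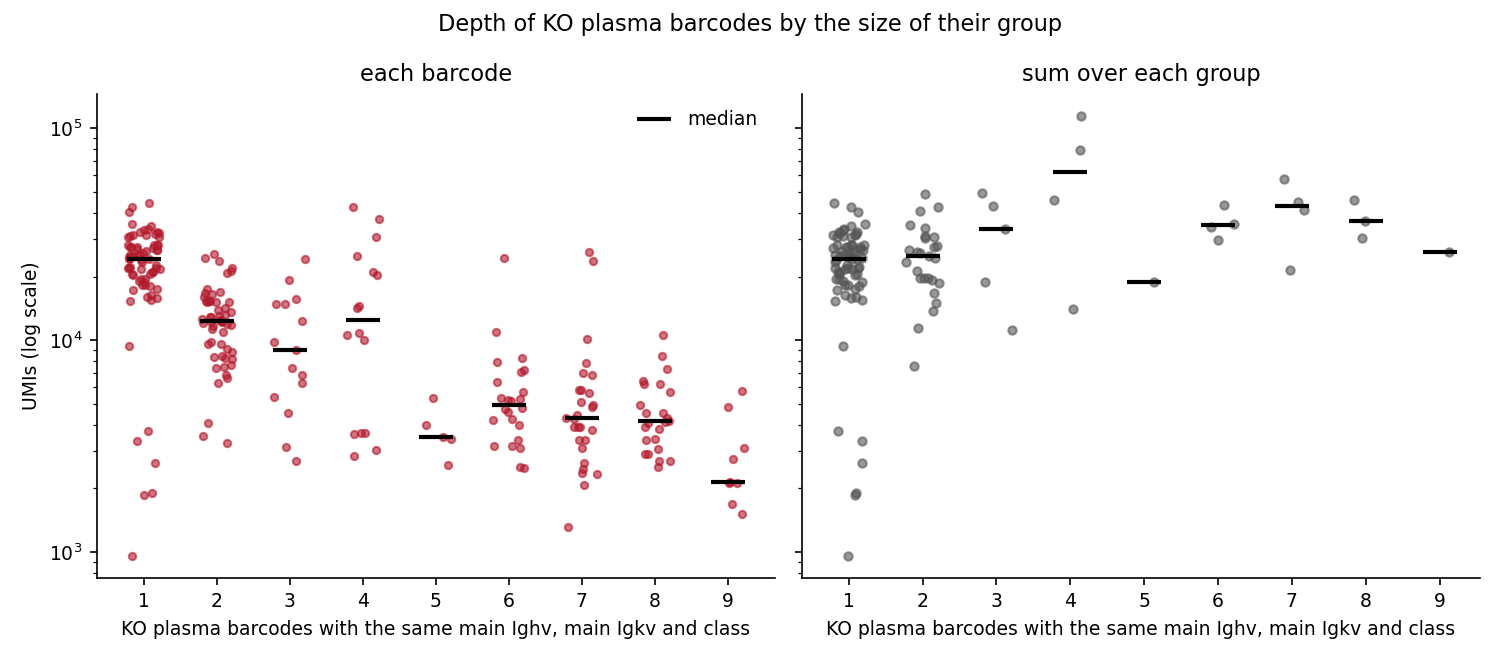
UMIs (log scale) of each KO plasma barcode with both main V genes (left, red) and summed over each group (right, grey), against the number of plasma barcodes with the same main Ighv, main Igkv and class; black bars are medians. The per-barcode median is 24194 UMIs at group size 1 and 2152 at size 9, while the sums of the groups of 2 or more lie between 7587 and 115068 UMIs.

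The main results were therefore also computed with every such group counted once, an alternative chosen after the data were seen. This left 165 plasma units with a main Ighv gene and 130 with a main Igkv gene. Only barcodes with both main V genes could be grouped, and every other barcode stayed 1 unit. Ighv1-82 had 20 of 165 units (12.1%, 7.56 to 18.1), followed by Ighv14-3 with 14 (8.48%) and Ighv1-80 with 10, while Ighv1-64 had 8. A main Igkv gene was found in 13 of 26 Ighv1-82, 21 of 26 Ighv14-3 and 3 of 11 Ighv1-80 barcodes. These ranks thus rest in part on barcodes whose sharing could not be assessed. On the kappa chain Igkv17-121 stood at 5 of 130 (3.85%, 1.26 to 8.75), Igkv10-96 led with 9 (6.92%, 3.21 to 12.7) and Igkv6-32 had 3. The effective number was 25.5 (19.7 to 35.9) for Ighv and 44.8 (34.6 to 63.8) for Igkv in plasma cells, and 14.8 (11.1 to 22.2) for Igkv in B cells. By class the Igkv effective number was 49.1 (33.0 to 96.4) in IgG2b and 16.5 in the 22 IgG1 units, with a lower bound of 7.89 and no upper one, so these intervals overlap. The IgM/IgD share was 1.69% (3 of 178 units) and the IgA share 1.12% (2 of 178), so both classes rested on few units, while IgG2b stood at 61.8% (54.2 to 69.0). Igkv1 made up 3.08% of plasma units (0.845 to 7.69) and 34.0% of B cell units (26.3 to 42.4). This is no check of the B cell side of the contrast, since few of those cells could be grouped. Only 3 of 28 Igkv1-117 and 1 of 15 Igkv1-110 B cells had a main Ighv gene. For Igkv6 the shares were 18.5% (12.2 to 26.2) and 9.03% (4.89 to 14.9), whose intervals overlap. Among plasma cells of at least 10000 UMIs 37.1% (28.6 to 46.2) shared pair and class.

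In 5 pairs the same heavy and light genes occurred with different classes. Ighv1-64 with Igkv6-32 had IgG1 in 7 barcodes of 36.7% to 54.7% antibody UMIs, and IgG2b in 6 barcodes of 57.5% to 65.3%, so the classes did not overlap in this share. Ighv9-3 with Igkv6-14 had 7 IgG1 barcodes (3780 to 26199 UMIs) and 2 IgG2b barcodes (12930 and 13863 UMIs). The other pairs had 1 barcode in each class: Ighv5-17 with Igkv6-23 in IgG1 and IgG2b, and Ighv1-9 with Igkv5-39 and Ighv1-82 with Igkv4-59, both in IgG2b and IgG3. Among the 21 lambda plasma cells Ighv1-80 led with 4 IgG3 and 3 IgG2b cells, followed by Ighv1-12 with 4 IgG2b cells and Ighv1-82 with 2 IgG1 and 2 IgG2b cells.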

How the data were processed

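For 1 KO and 1 WT library the deposited matrices give UMI counts by gene and barcode, not normalized, as their whole numbers show. According to the submitters' processing notes reads were handled with Cell Ranger 6.0.1 and then with Seurat 4.0.3 and 4.0.4, and the build was mm10. Matrix headers instead record Cell Ranger 8.0.1, per the file headers. Neither the release of the gene annotation nor the handling of strand is stated in these sources.

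Cells needed 200 or more detected genes and no more than 20% of UMIs from mitochondrial genes. Scrublet, run in scanpy 1.11.5 on each library, scored doublets. Where its threshold called under 0.5% of cells, as in KO, the highest scores were removed at 0.8% per 1000 cells, so doublet removal took more of KO than of WT. T cells had at least 3 UMIs of Cd3d, Cd3e and Cd3g and none of Cd79a or Cd79b, and macrophages at least 10 of C1qa, C1qb and C1qc and none of those. IgM and IgD were joined. Shares have Clopper-Pearson intervals, effective numbers the inverse Simpson index with its analytic variance, log2 ratios of shares a normal approximation and levels exact Poisson intervals, with a floor of 3 counts at 0. Sequences were compared by edit distance (edlib 1.3.9.post1). V assignment and evenness were tested on simulated data, at V depths like those of plasma cells and without confusion of similar genes. That test does not cover the B cells, whose main genes had a median of 2 UMIs.

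Named were, per chain, the 8 leading genes of plasma and of B cells, up to 4 genes each way that differed most between them, the genes of groups of at least 3 plasma cells and the leading gene of each class with at least 10. Other genes were named after their values were seen. Members and lists were chosen with earlier results of these data known. UMIs are counted by molecular identifier, and the depth per library is given with the results.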

Additional observations from a re-analysis of the deposited data

Results flagged for a closer look

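Iglv1, a lambda V gene outside the heavy and kappa members, had a median of 16 UMIs in the 283 KO plasma cells of kappa type, and was flagged as a signal outside the main measurement above the level of the other gates. A UMI was found in 97.5% of these cells, against 1.76% of KO T cells and 1.89% of KO macrophages, and the WT library had no plasma cell for comparison. The constant lambda genes had a median of 10 UMIs in the same cells. For each 1000 lambda constant UMIs there were 1661 Iglv1 UMIs in kappa plasma cells and 16.2 in the 21 lambda plasma cells, where Iglv1 had a median of 35 UMIs.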

How the results depend on the processing

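With 11 alternatives to 28 results, 282 values were compared. Of these 239 stayed within 1.5 times (counts) or inside the 95% interval of the value as reported (shares, levels and effective numbers), and 43 did not. Stricter cell filters (500 genes and 10% mitochondrial UMIs), 5 UMIs for the B cell gate and 80% for a main gene moved none. B cells carried most moves among the 9 alternatives listed at the outset. With 1 UMI for a main gene 650 B cells had a main Ighv gene (effective number 47.1, Ighv1-81 4.31%) and 712 a main Igkv gene (30.2, Igkv1-117 10.4%). With 5 UMIs these were 12 (6.60, 25%) and 19 (34.2, 10.5%), and 61.2% of plasma cells and 0% of B cells shared pair and class. Weighted by UMIs, the effective numbers in plasma cells were 19.0 (Ighv) and 23.3 (Igkv), with Igkv17-121 at 3.97%, and in B cells 24.6 for Igkv, with Igkv1-117 at 12.3%. A plasma gate at 40% put Ighv1-82 at 5.78%, a gate at 10% put the share of B cells in groups at 13.3%, and without doublet removal V UMIs in KO were 155 CPM, against 162 CPM. The cause of these shifts was not tested.

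Of the 2 alternatives added after the data were seen, counting each group once gave 165 and 130 plasma units with a main Ighv and Igkv gene, an Igkv effective number of 44.8, Igkv17-121 at 3.85% and IgM/IgD at 1.69%. By class the Igkv effective number was then 49.1 in IgG2b, 16.5 in IgG1 and 46 in IgG2c, and that of Ighv 25.1 in IgG1. At 10000 UMIs or more 138 and 124 plasma cells and 41 and 62 B cells had a main Ighv and Igkv gene, Igkv17-121 stood at 0.806% of plasma cells and Igkv1-117 at 9.68% of B cells. There IgG2b was 50.7%, IgG2c 21.7% and IgA 0.725%, the Igkv effective number was 37.8 in IgG2b and 7.22 in IgG1, and 37.1% of plasma cells shared pair and class. No paired analysis was possible because each genotype has 1 library and no test was made.

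Depth limits these data in 3 ways. Few molecules reach the V segment, so 3.01% and 4.03% of B cells enter the comparison with plasma cells, and these are the deeper ones. Class calls were also made in cells that should lack antibody, 13.6% of KO T cells and 4.63% of WT T cells. Barcodes of 1 group share their V genes and class, and intervals over plasma cells treat them as independent.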

Other observations

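Genes that join or transcribe V segments were read in the same gates. Rag1 and Rag2, the recombinase of V(D)J joining, had 0 UMIs in KO plasma cells and KO B cells, and Dntt, which adds bases at the joins, had 0 and 0.318 CPM. Of the factors that bind V promoters, the coactivator Pou2af1 stood at 215 CPM in plasma cells and 213 CPM in B cells, while Pou2f2 stood at 64.7 and 219 CPM and Pou2f1 at 21.1 and 53.5 CPM. The B cell factors Pax5 and Ebf1 stood at 4.55 and 74.6 CPM in plasma cells and 310 and 1902 CPM in B cells. Xbp1 and Prdm1 ran the other way, 1046 and 69.8 CPM in plasma cells and 68.1 and 5.0 CPM in B cells.

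Mki67, a proliferation marker, stood at 338 CPM in B cells with a main Igkv gene and 165 CPM in those without, at median depths of 8056 and 4295 UMIs; the part of depth was not tested.

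Igkv3-11 is annotated as a pseudogene and was the main gene of 3 plasma cells. Across the 99 Ighv genes compared, V UMIs of plasma cells and of T cells plus macrophages had a Spearman rho of 0.593 (44 UMIs in those cells), and across 96 Igkv genes 0.511 (35 UMIs). For B cells and the same T cells plus macrophages rho was 0.610 (Ighv) and 0.411 (Igkv). Between plasma cells and B cells it was 0.569 and 0.582, so the source of the background V UMIs is not read from these values. Genes are not independent here, and all of these cells share 1 library.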
